A study of Mytilus coruscus with 2 samples.

Results

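Genes that were nearest to 3 or more Nrf2 ChIP-seq peaks were examined in the digestive gland of the hard-shelled mussel *Mytilus coruscus*. The genes were chosen by the ChIP readout itself, since a gene was selected on the number of called peaks for which the authors' annotation gave it as the nearest gene. This took 194 of the 2548 genes with a peak, which is 7.61% (Wilson 95% interval 6.65 to 8.71). These genes held 749 of the 3465 peaks, or 21.6% (20.3 to 23.0).

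The series holds 1 library after Nrf2 ChIP and 1 library of input, both from digestive gland cells of mussels with no treatment given in the labels. The input was chromatin from the same preparation that did not go through the antibody step. Neither the antibody nor the number of animals behind the chromatin is given for these libraries in the sources used here. With 1 library of each kind there was no replicate error, every value below describes this pair of libraries, and intervals cover counting error only.

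Nrf2 is a transcription factor of the cap'n'collar family. In vertebrates it is held in the cytoplasm by Keap1, and under oxidative or electrophilic stress it enters the nucleus, pairs with small Maf proteins and binds antioxidant response elements near genes for glutathione synthesis, detoxification and redox enzymes. The digestive gland is the main organ of digestion and detoxification in bivalves. A nearest gene is assigned by distance alone, so a long gene or a gene with wide empty flanks can collect peaks that lie far from its transcription start site (TSS).

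The number of peaks per gene fell off steeply among the 194 genes. There were 105 genes with 3 peaks, 51 with 4, 21 with 5, 9 with 6, 4 with 7, 2 with 8, 1 with 10 and 1 with 17. Thus 38 of the 194 genes (19.6%) had 5 or more. Among the genes outside the set, 1992 had 1 peak and 362 had 2. All 194 genes were in the table as called, and no filter on low values was applied to them.

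**Figure D1:**
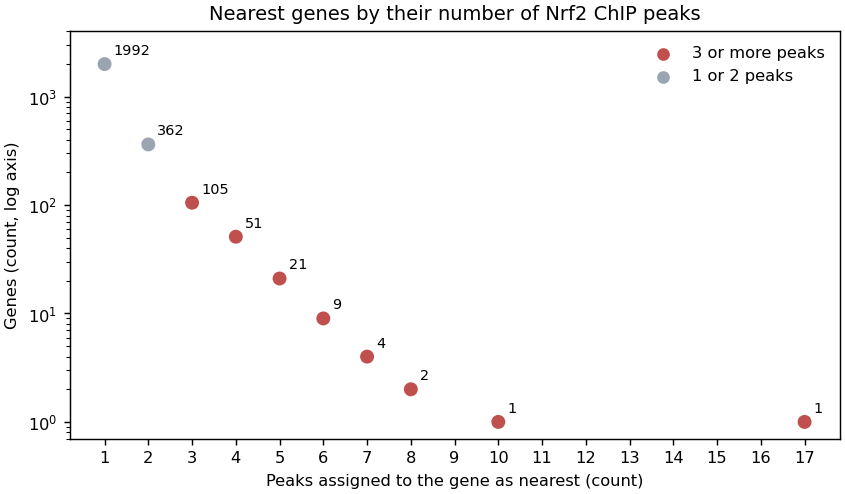
Number of genes (vertical log axis) by the number of peaks assigned to them (horizontal axis), with genes of 3 or more peaks in red and genes of 1 or 2 peaks in grey. The counts drop from 105 genes with 3 peaks to 1 gene with 10 and 1 gene with 17, against 1992 genes with 1 peak.

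Each peak came with its pileup, the number of ChIP fragments that cover the summit, and its fold enrichment, the pileup over the local background expected from the input. Peaks of the 194 genes had a median fold enrichment of 4.50 (interquartile range 3.60 to 5.91), against 4.68 (3.83 to 5.64) for peaks of genes with 1 or 2 peaks. Their median pileup was 21 fragments against 15, and their median length was 377 bp against 299 bp. The middle ranges of the folds overlapped, while the multi-peak genes had more fragments and longer peaks. Peaks of 1000 bp or more made up 4.27% (32) of the peaks of multi-peak genes and 1.80% (49) of the others. Enrichment of 10-fold or more was reached by 30 peaks (4.01%) of the multi-peak genes, in 24 of the 194 genes, and by 56 peaks (2.06%) of the others. Values just inside and just outside the threshold were close. The 315 peaks of genes with exactly 3 peaks had a median fold of 4.77, a pileup of 18 and a length of 371 bp, and the 724 peaks of genes with exactly 2 had 4.70, 16.5 and 339.5 bp.

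Most peaks of the multi-peak genes lay between genes or in introns. Of the 749 peaks, 348 (46.5%, 42.9 to 50.0) were intergenic and 319 (42.6%, 39.1 to 46.2) were intronic. For peaks of genes with 1 or 2 peaks these shares were 38.8% (37.0 to 40.7) and 45.5% (43.7 to 47.4). Promoter classes, which reach up to 1, 2 and 3 kb from the TSS in the authors' annotation, held 12, 14 and 16 peaks. Together these were 42 peaks or 5.61% (4.18 to 7.49), against 209 peaks or 7.70% (6.75 to 8.76). Some peaks less than 1 kb downstream of a TSS were classed as exon or intron instead, so the promoter classes do not hold every peak near a TSS. A further 31 peaks (4.14%) were in exons and 9 (1.20%) in the downstream class, against 5.56% and 2.39% in the other genes. The intergenic share was higher and the promoter share lower in the multi-peak genes, and neither difference was tested. In 124 of the 194 genes all peaks were in the same class. The peaks were thus not independent, and these intervals, which count each peak on its own, are too narrow. When the peaks with a local background plus 1 above 10.8 fragments were left out and genes were chosen again, the intergenic shares were 40.6% (36.6 to 44.7) and 37.9% (36.1 to 39.8), with intervals that overlap.

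Background was higher under these peaks. For each peak, the pileup plus 1 was divided by the fold, which gives the local background plus 1 fragment. This is the level used in peak calling and not a direct count of input fragments at the peak. The median was 4.56 in peaks of the multi-peak genes and 2.94 in the others. Of all peaks in the series, 9.99% were above a background of 10.8, termed high background here. In the multi-peak genes 146 of 749 peaks (19.5%, 16.8 to 22.5) were above it, against 200 of 2716 (7.36%, 6.44 to 8.41). The lowest background in the table, 2.48, was shared by 123 (16.4%) of the peaks of multi-peak genes and by 726 (26.7%) of the others, and at that level the fold follows the pileup alone. High background was concentrated in part of the genes. In 132 genes no peak was above the level, and in 15 genes every peak was. In 28 genes with 119 peaks, the peaks above the level were at least as many as those below it. Peaks of those 28 genes had a median fold of 2.93 on a median pileup of 58 and background of 18.8, against 4.84, 18 and 3.67 in the other 166 genes. Of the 28 genes, 19 had intergenic peaks only and 13 had a Swiss-Prot match, against 43 and 115 of the 166. The part of background in the number of peaks called per gene was not tested.

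**Figure D2:**
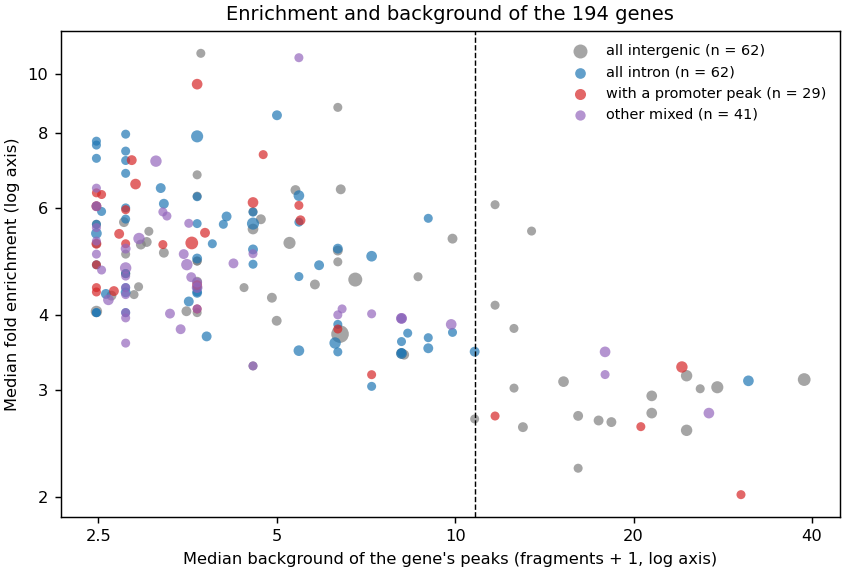
Median fold enrichment (vertical log axis) against median background in fragments plus 1 (horizontal log axis) for the 194 genes, coloured by peak pattern, with larger points for more peaks and a dashed line at the high background level of 10.8. Of the 28 genes right of the line, 19 have intergenic peaks only and 26 have a median fold under 4.68, the median over all 194 genes.

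Peaks of 1 gene lay close together. The gap, counted in bases between the end of a peak and the start of the next peak of the same gene, had a median of 1813 bp (95% interval 1514 to 2298) over 555 gaps. The interquartile range was 653.5 to 6392 bp and the extremes were 195 and 110745 bp. Of the gaps, 205 (36.9%) were under 1000 bp and 389 (70.1%) under 5000 bp, while 55 (9.91%) were 20000 bp or more. In genes with exactly 2 peaks the median of 362 gaps was 3091 bp, 27.1% were under 1000 bp and 20.4% were 20000 bp or more. Between neighbouring peaks of any gene on a chromosome the median of 3445 gaps was 169191 bp. A gene cannot collect 3 peaks unless they lie within its reach, so short gaps follow in part from the rule. The smallest gap in the table was 192 bp and the shortest peak 191 bp. Gaps between 2 intergenic peaks of a gene had a median of 1437.5 bp (n = 238), and gaps between 2 intronic peaks 2138.5 bp (n = 202).

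**Figure D3:**
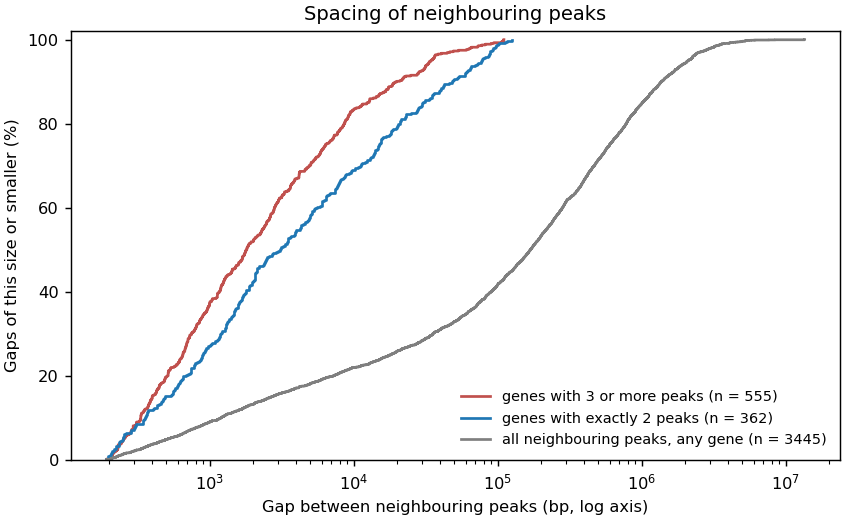
Share of gaps of a given size or smaller (vertical axis, %) by gap size in bp (horizontal log axis) for genes with 3 or more peaks (red), genes with exactly 2 peaks (blue) and all neighbouring peaks of any gene (grey). The red curve passes 36.9% at 1000 bp and the blue one 27.1%, and the grey curve has its median at 169191 bp.

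Over whole genes, the span between the first and the last peak had a median of 12122 bp and reached from 1426 to 146402 bp. It was under 5 kb in 40 genes, under 10 kb in 84 and at least 50 kb in 23. At least 1 gap under 1000 bp was seen in 122 genes, and 45 genes had a run of 3 or more peaks with such gaps. All peaks were in the same class in 124 genes (63.9%), with 62 of these all intergenic and 62 all intronic. Another 29 genes had at least 1 promoter peak, and 41 had other mixtures. By position, 116 genes had all peaks downstream of the TSS, 38 had all upstream and 40 had peaks on both sides. Genes with intergenic peaks only had the shortest median span (7763.5 bp) and the highest share of peaks over high background (32.0%), and genes with intronic peaks only had 11798.5 bp and 9.38%. The 41 mixed genes without a promoter peak had the widest median span, 33207 bp. The nearest peak was within 3 kb of the TSS in 43 genes, and in 104 genes every peak was more than 10 kb away. Within a gene the highest fold was a median of 1.72 times the lowest, it was at least 2 times the lowest in 65 genes, and the largest ratio was 5.41.

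**Figure D4:**
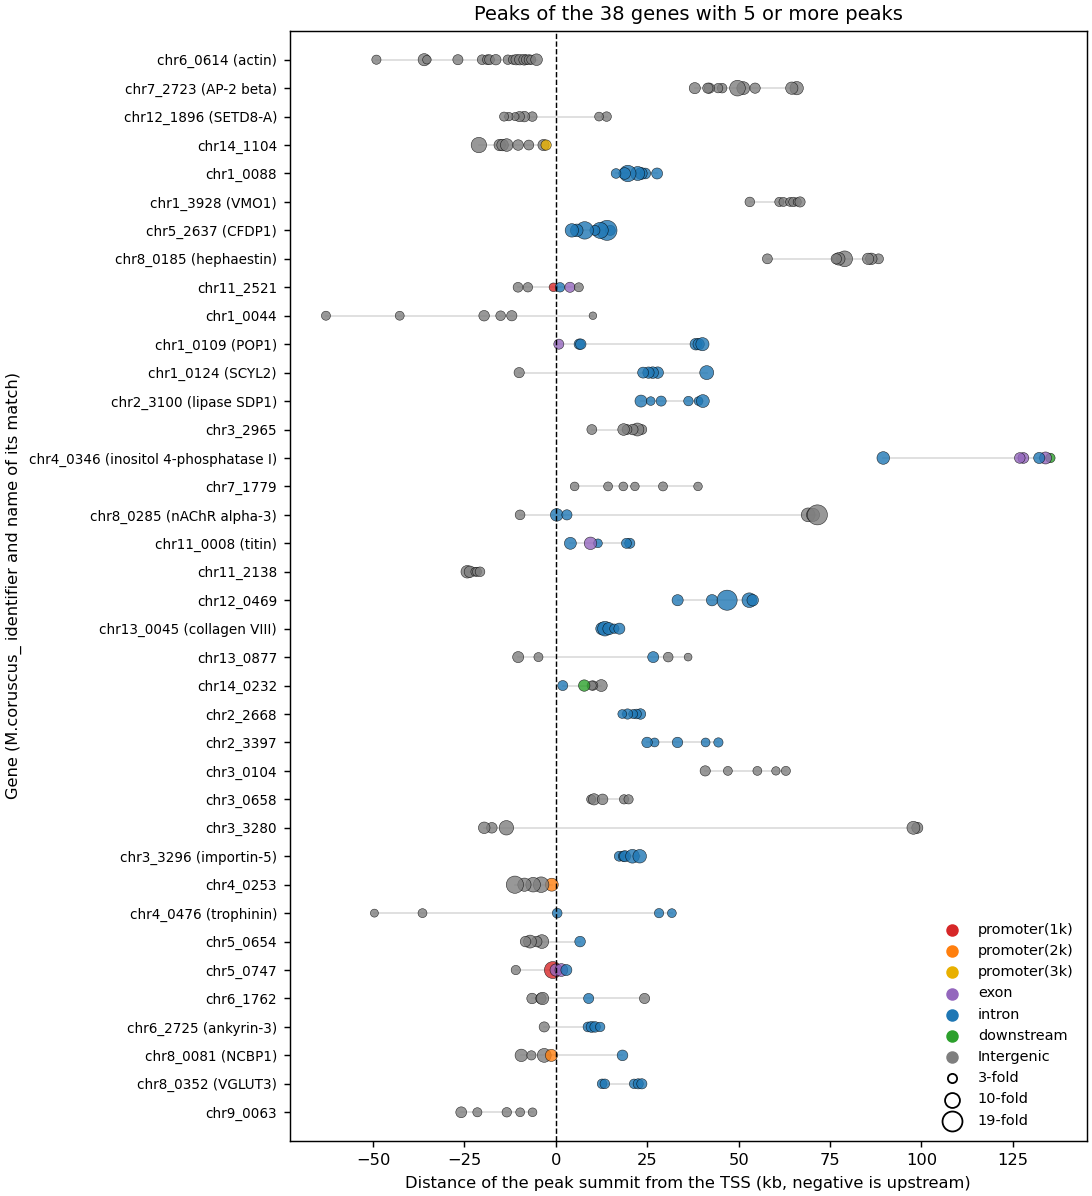
Position of each peak summit relative to the TSS (horizontal axis, kb, negative upstream) for the 38 genes with 5 or more peaks (1 row each), coloured by region class and sized by fold enrichment. The 17 peaks of the actin gene all lie upstream, between 5263 and 49068 bp from the TSS, while rows such as CFDP1 and importin-5 hold intronic peaks only.

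Among genes of the cytoskeleton, M.coruscus_chr6_0614 had the most peaks of all. It matched an actin, the subunit of thin filaments, and its 17 peaks were intergenic on chromosome 6 (27179808 to 27223806), all upstream of the TSS. From the far end to the near end their folds were 3.01, 6.30, 2.46, 3.94, 3.54, 3.60, 3.71, 4.26, 3.33, 3.0, 4.22, 4.30, 4.68, 3.32, 3.79, 2.95 and 5.62. Pileups were even, from 18 to 31, and none of the 17 was over high background. Spacing was tight, with a median gap of 894 bp and 8 of 16 gaps under 1000 bp. The highest fold, 6.30, was at a summit 35988 bp upstream, and the second highest was at the peak nearest the TSS, 5263 bp upstream. No promoter peak was called for this gene.

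The trichohyalin-like gene M.coruscus_chr1_0088 (chromosome 1, 4239013 to 4250556) carried 7 intronic peaks between 16479 and 27700 bp downstream of the TSS. Trichohyalin binds keratin filaments in mammals. Its folds in genome order were 4.91, 4.61, 5.96, 8.81, 12.6, 5.66 and 3.51, so the enrichment was highest in the middle of the run. Titin, the giant spring protein of muscle, was the match of M.coruscus_chr11_0008, with folds of 3.94, 3.82, 2.59, 6.67 and 6.0. Its 6.67-fold peak was in an exon and the other 4 were intronic. The ankyrin-3-like M.coruscus_chr6_2725, a membrane to spectrin adaptor, had an intergenic peak of 3.94-fold and 4 intronic peaks of 3.64, 4.80, 4.37 and 3.23-fold. The myosin-binding protein C-like M.coruscus_chr3_0104 had 5 intergenic peaks more than 40 kb past the TSS with folds of 4.07, 2.75, 2.74, 2.32 and 2.93, and 4 of them were over high background.

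The second largest number of peaks was in a gene of membrane traffic. The 10 peaks of M.coruscus_chr7_2723, which matched the beta subunit of the AP-2 clathrin adaptor, lay beyond the gene end on chromosome 7 (115029187 to 115057711). Their folds in genome order were 7.76, 6.42, 4.10, 7.19, 11.3, 3.42, 3.20, 4.04, 4.04 and 5.04. The last of them had the highest pileup, 170 fragments, on a background of 33.9, while the 11.3-fold peak had 40 fragments on 3.64. Fold and pileup therefore ranked these peaks differently. The gene M.coruscus_chr11_2521, like an Arf-GAP with GTPase and ankyrin repeat domains, had peaks on both sides of its TSS with folds of 3.55, 3.24, 2.51, 3.31, 3.96 and 2.84. Its 2.51-fold peak was in promoter(1k), and the 3.31-fold intronic peak had a pileup of 388 on a background of 118. Importin-5, a carrier of proteins into the nucleus, was the match of M.coruscus_chr3_3296, whose 5 intronic peaks were packed within 6833 bp with folds of 3.74, 4.19, 5.00, 8.33 and 8.09. The smallest gap of any multi-peak gene, 195 bp, was in this run. The trophinin-like gene M.coruscus_chr4_0476 had folds of only 1.94, 2.75, 3.51, 3.12 and 2.68 across 81873 bp, and all 5 peaks were over high background. Vacuolar protein sorting 13 proteins, bridges for lipid transfer between membranes, were the match of M.coruscus_chr9_0159 and M.coruscus_chr12_1939. The first had intronic peaks of 7.19, 7.03, 5.92 and 4.91-fold and the second of 5.70, 4.85 and 3.04-fold.

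In the group of nuclear and RNA genes, 8 peaks belonged to M.coruscus_chr12_1896, which matched SETD8-A, a methyltransferase for histone H4. This match was weak, with an E-value (matches this good expected by chance) of 5e-09, against 0.0 for the match of the actin gene. From the side downstream of the TSS to the upstream side the folds were 3.35, 2.69, 3.36, 4.38, 3.98, 1.97, 2.34 and 2.90. The pileups in the same order were 53, 28, 143, 198, 272, 71, 95 and 87 fragments, and every peak was over high background. The other SETD8-A-like gene, M.coruscus_chr7_0976, had 3 peaks of 4.68, 3.16 and 3.29-fold and none of them over that level. The match of M.coruscus_chr1_0109 was POP1, a subunit of the ribonucleases P and MRP that trim RNA. It had an exonic peak of 3.84-fold 821 bp from the TSS, 2 intronic peaks of 4.32-fold at 6440 and 6823 bp, and a run of 5.64, 5.24 and 7.56-fold between 38310 and 40102 bp. Nuclear cap-binding protein 1, which binds the cap of nascent RNA, was the match of M.coruscus_chr8_0081. Its folds were 6.61, 3.07, 8.50, 6.13 and 4.53, the 6.13-fold peak was in promoter(2k) 1208 bp upstream, and none was over high background. CFDP1, a chromatin protein, was the match of M.coruscus_chr5_2637, with 7 intronic peaks on chromosome 5 (113889832 to 113902021). Their folds were 3.95, 19.1, 11.9, 3.85, 14.2, 6.85 and 7.89, so high and low peaks were mixed within 12190 bp. The 11.9-fold peak had a pileup of 202 on a background of 17.0, whereas the 19.1-fold peak had 69 on 3.67.

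The channel gene M.coruscus_chr8_0285, matched to a nicotinic acetylcholine receptor subunit, had lower peaks near its TSS and higher peaks far from it. The peaks at the 5′ side had folds of 3.54 at 9776 bp upstream, and 6.80 and 4.03 in introns at 243 and 3034 bp downstream. Then a gap of 65810 bp followed, and 3 intergenic peaks about 70 kb past the TSS had 8.45, 7.56 and 19.2-fold, with pileups of 30, 20 and 54. These last 3 peaks were within 3 kb of each other. The acetylcholine receptor alpha-like M.coruscus_chr14_0923 had 4 peaks of 4.43, 3.60, 3.15 and 4.45-fold on both sides of its TSS. Potassium and sodium channels were also represented, by the small conductance calcium-activated channel-like M.coruscus_chr9_0154 with intergenic peaks of 4.85, 8.05, 8.12 and 3.32-fold, and by the sodium channel-like M.coruscus_chr8_0390 with intronic peaks of 4.84, 3.82 and 4.03-fold. The match of M.coruscus_chr8_0352 was vesicular glutamate transporter 3, which loads glutamate into synaptic vesicles. Its 5 intronic peaks were of even height, with folds of 3.40, 3.45, 3.34, 3.94 and 4.01.

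Of the extracellular and surface proteins, the collagen VIII-like gene M.coruscus_chr13_0045 had 5 intronic peaks within 5290 bp on chromosome 13 (2234500 to 2239789). The folds were 6.40, 9.77, 6.29, 3.12 and 4.97, and 2 of the 5 were over high background. Collagen VI alpha-4 was the match of M.coruscus_chr14_0958, with 3 peaks and a median of 6.05-fold. The mucin-like gene M.coruscus_chr13_0877 had 5 peaks of 4.97, 2.87, 4.92, 3.47 and 1.79-fold on both sides of its TSS, all over high background. Integrin alpha-4, a cell adhesion receptor, was the match of M.coruscus_chr2_3437, whose 3 intronic peaks of 8.87, 5.64 and 4.81-fold were spread over 140811 bp. The 7 intergenic peaks of M.coruscus_chr1_3928, like the egg-coat protein VMO1, lay 53057 to 66801 bp past the TSS with folds of 3.42, 3.03, 2.80, 2.59, 3.24, 2.06 and 4.01. Here 6 of the 7 were over high background, and the last 6 formed the longest run with gaps under 1000 bp of any multi-peak gene.

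Redox enzymes are among the best known targets of Nrf2 in vertebrates. The hephaestin-like gene M.coruscus_chr8_0185 (chromosome 8, 8145202 to 8175789) had 7 intergenic peaks 57869 to 88254 bp past its TSS, and hephaestin is a copper ferroxidase that helps export iron from gut cells in mammals. The folds were 3.73, 5.44, 5.26, 11.4, 6.70, 4.22 and 3.72, and the pileups 16, 203, 37, 59, 101, 19 and 16. Similar folds thus stood on very different fragment numbers, as 203 fragments gave 5.44-fold and 37 gave 5.26-fold. The ferric-chelate reductase-like M.coruscus_chr1_0458, which reduces iron, had folds of 4.32, 6.81, 3.56 and 4.43, the last in promoter(2k) 1729 bp upstream and the one before it in an exon 121 bp downstream. In M.coruscus_chr6_2633, like 1,5-anhydro-D-fructose reductase of the aldo-keto reductase family, 4 intronic peaks near 50 kb past the TSS had 6.47, 10.6, 11.8 and 5.76-fold.

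Glutathione peroxidase 3, which reduces peroxides with glutathione, was the match of M.coruscus_chr12_0397. Its 3 peaks beyond the gene end had 2.51, 3.02 and 3.73-fold on pileups of 64, 53 and 109, and all were over high background. Dual oxidase 2, which makes hydrogen peroxide, was the match of M.coruscus_chr8_0362, with intronic peaks of 4.77, 4.68 and 3.63-fold. Peroxisomal acyl-CoA oxidase 1, the first enzyme of peroxisomal beta-oxidation and a source of hydrogen peroxide, was the match of M.coruscus_chr14_1364, with intergenic peaks of 4.17, 4.81, 4.84 and 3.33-fold. The disulfide isomerase TMX3-like M.coruscus_chr5_0348 had intronic peaks of 4.03, 7.92, 3.15 and 4.68-fold, and the alkB-like dioxygenase M.coruscus_chr1_3727 of 3.06, 3.66 and 4.35-fold. None of these 5 genes had a promoter peak. Among the 10 genes whose names matched the redox word list, 17 of 39 peaks were intergenic, 20 intronic and 1 in a promoter class, and the median fold was 4.68. Some entries were there by 1 database name only, such as a WAP domain gene and the X-element-like M.coruscus_chr11_2487.

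Several genes of signalling were in the set. The SCY1-like protein 2-like gene M.coruscus_chr1_0124, a pseudokinase of clathrin traffic, had 6 with folds of 8.64, 5.45, 5.53, 5.24, 4.84 and 4.04. The inositol 4-phosphatase-like M.coruscus_chr4_0346, which removes a phosphate from inositol lipids, had 6 peaks far down the gene, 89560 to 135259 bp from the TSS. The folds were 3.27 in the downstream class, 6.05, 4.63 and 4.44 in exons, and 5.05 and 6.85 in introns. It held 3 of the 31 exonic peaks. Other inositol lipid enzymes were the SAC1-like phosphatase M.coruscus_chr5_2274 with 9.67, 4.09 and 6.27-fold in introns and the PIKfyve-like kinase M.coruscus_chr7_0928 with 3.85, 7.36 and 7.80-fold upstream. The kinase STK11, upstream of AMPK, was the match of M.coruscus_chr1_0347, with intronic peaks of 8.64, 4.00, 6.79 and 4.84-fold. The BRSK2-like kinase M.coruscus_chr6_0072 had 13.3, 5.04 and 7.20-fold. All peaks of both these kinase genes were intronic.

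The homeodomain-interacting protein kinase-like gene M.coruscus_chr1_1073 had most of its peaks in exons. The exons held 3 of its 4 peaks, at 328, 1095 and 1694 bp from the TSS with 7.26, 4.84 and 8.87-fold, and the last peak, of 4.84-fold, was in the downstream class. The 4 peaks followed each other with gaps of 232, 295 and 250 bp. Each stood on the lowest background in the table. Another gene with this KEGG name, M.coruscus_chr5_1006, had 3 peaks of 3.54, 4.09 and 5.09-fold and 1 of them in a promoter class.

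Promoter peaks were found in 29 of the 194 genes and in 10 of them more than 1 was called. Both ATM-like genes of the set, matched to the kinase that senses DNA double-strand breaks, were among these 10. They were 2 gene numbers apart on chromosome 9, with 146493 bp between their peaks. In M.coruscus_chr9_0780 the 3 peaks lay 896, 1309 and 2016 bp upstream with 4.03, 4.36 and 6.05-fold, and its span of 1426 bp was the shortest of all 194 genes. In M.coruscus_chr9_0782 they lay 893, 2907 and 4566 bp upstream with 4.84, 7.26 and 6.36-fold, the last of them intergenic. Both genes thus had a peak about 0.9 kb upstream and higher folds further out, with pileups of 9, 15 and 14 in the first gene and 11, 17 and 28 in the second. The gypsy Pol-like gene M.coruscus_chr8_2342, a retroelement protein, had promoter peaks of 7.45, 3.54 and 12.6-fold and an intergenic peak of 6.97-fold within 4002 bp. For M.coruscus_chr13_0436, all 3 peaks were in promoter classes, with 10.3-fold 2120 bp upstream, 6.06-fold 1214 bp upstream and 4.18-fold at 86 bp downstream.

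The remaining genes with more than 1 promoter peak had 2 each. POMGNT1, which extends O-mannose glycans, was the match of M.coruscus_chr1_0207, with promoter peaks of 8.31 and 4.22-fold and intronic peaks of 6.32 and 4.61-fold. The PPP1R21-like M.coruscus_chr3_0307, named for a phosphatase regulator, had promoter peaks of 3.56 and 3.40-fold, while its 12.3-fold peak was intronic, 18649 bp past the TSS, and its 7.90-fold peak was intergenic. The NACHT and WD repeat gene M.coruscus_chr10_2505 had 6.32 and 4.62-fold in the promoter and 6.45-fold further upstream. Zinc finger protein 208 was the match of M.coruscus_chr11_0405, with 6.12 and 3.54-fold in the promoter and 5.24-fold in an intron. M.coruscus_chr5_2900 had 5.64 and 6.0-fold in the promoter and 5.24 and 4.42-fold in intergenic sequence 15592 and 33444 bp past the TSS. The TSSK3-like kinase gene M.coruscus_chr1_2683 had 2.72 and 2.41-fold there and 2.91-fold in an exon, with all 3 peaks over high background. The strongest peak was a promoter peak in 7 of these 10 genes, 2 of which had promoter peaks only, so that their outcome was fixed. It was a promoter peak in 11 of all 29 genes with a promoter peak. Of the 109 peaks of these 29 genes, 42 were promoter peaks, which is a similar share. The highest single promoter fold of a gene with 5 or more peaks was 13.4, in promoter(1k) of the uncharacterized M.coruscus_chr5_0747, whose other folds were 3.10, 6.58, 7.02 and 4.91.

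The highest median fold of the 194 genes, 10.8, was that of M.coruscus_chr11_2487, which matched a reverse transcriptase of the X-element retrotransposon of *Drosophila*. Its peaks beyond the gene end had folds of 29.0, 10.8 and 8.33, and the first was 3465 bp long with a pileup of 519 on a background of 17.9. M.coruscus_chr1_0059, like transcription factor 24, had 10.6-fold and 12-fold in intergenic sequence and 6.85-fold in an intron. In M.coruscus_chr4_0253, which had no match, the folds were 7.26 in promoter(2k) and 11.1, 9.62, 7.66 and 13.9 upstream of it, so each of its 5 peaks was above 7-fold. The uncharacterized M.coruscus_chr6_0613, next to the actin gene, had 5.55, 8.81 and 12.6-fold. Aminopeptidase N, a brush border enzyme that trims peptides in the gut, was the match of M.coruscus_chr11_0596, with 7.96, 16.9 and 5.21-fold in introns at least 175041 bp from the TSS. The WDR41-like M.coruscus_chr8_0268 had 7.75, 8.87 and 4.03-fold, the RNF215-like ubiquitin ligase gene M.coruscus_chr7_2887 had 5.64, 12.1 and 7.63-fold, and the DDX23-like splicing helicase M.coruscus_chr2_2189 had 7.46, 5.04 and 8.06-fold, all in introns.

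At the other end, the lowest median fold, 2.01, was that of the calcium-sensing receptor-like M.coruscus_chr1_2696. Its folds were 2.01, 1.81 and 2.35 on pileups of 53, 54 and 133. M.coruscus_chr1_0837, which had a database match but no protein name, had 2.09, 2.23 and 2.54-fold. The uncharacterized M.coruscus_chr7_1779 had 6 intergenic peaks of 2.44, 2.84, 2.43, 2.59, 2.76 and 2.56-fold, which were the most even of the genes with 6 peaks. M.coruscus_chr7_1535 had 3.82, 2.39, 2.13 and 2.82-fold, and M.coruscus_chr3_3288 had 3.79, 2.61 and 1.99-fold. Every peak of these 5 genes was over high background, and their pileups were between 27 and 133 fragments. The peak with the most fragments in the set was in M.coruscus_chr1_0044, which had no match. This intergenic peak 10146 bp past the TSS had a pileup of 1712 on a background of 1053 and was enriched by 1.63-fold, while the other 5 peaks of the gene had 2.87, 2.77, 4.37, 3.47 and 4.11-fold.

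Among the other genes with 5 or more peaks, the uncharacterized M.coruscus_chr14_1104 had 8, all upstream, with 10.8-fold at the far end, then 5.40, 5.53, 6.81, 4.39, 3.70 and 5.12-fold, and 4.11-fold in promoter(3k). The KEGG name of a BTB/POZ domain protein of the KCTD family was shared by M.coruscus_chr11_2138 and M.coruscus_chr12_0469. The first had 5 intergenic peaks packed in 3918 bp with 6.77, 5.37, 2.78, 2.83 and 3.45-fold, and the second had 5 intronic peaks over 20810 bp with 5.04, 5.24, 19.3, 9.67 and 5.45-fold. A shared name thus went with different region classes, spacing and heights. The patatin-like lipase gene M.coruscus_chr2_3100, a match to the plant lipase SDP1, had intronic peaks of 6.08, 2.55, 3.87, 3.31, 2.57 and 7.16-fold. The O-mannosyltransferase-like M.coruscus_chr3_2965 had 6 intergenic peaks of 3.63, 7.26, 4.43, 3.63, 5.64 and 3.66-fold, and 5 of these stood on the lowest background of 2.48. For M.coruscus_chr2_3397, an aminotransferase by its KEGG name, the folds were 3.11, 2.70, 4.29, 2.72 and 4.37, with a pileup of 353 at the last. Of its 5 peaks, 4 were over high background. The retroelement Pol-like M.coruscus_chr2_2668 had intronic peaks of 4.36, 3.49, 2.75, 4.09 and 2.63-fold within 5393 bp. Others had no match or a match without a known role. M.coruscus_chr5_0654 had 4.43-fold in an intron and 8.30, 4.36, 7.24 and 4.34-fold upstream of the TSS. M.coruscus_chr6_1762 had peaks on both sides with 4.36, 4.23, 6.58, 3.96 and 4.03-fold, all on low background. M.coruscus_chr14_0232 had 5.91, 3.21, 3.05, 5.36 and 3.85-fold, running from intergenic sequence beyond the gene back to an intron. In M.coruscus_chr3_0658 the intergenic folds were 2.89, 5.19, 4.43, 3.10 and 3.06, with 4 of the 5 peaks over high background. In M.coruscus_chr9_0063 they were 2.56, 2.69, 3.29, 2.94 and 4.70 with every peak over high background.

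The 5 shortest spans were at most 2139 bp. After the first ATM-like gene, the USP8-like deubiquitinase gene M.coruscus_chr11_2176 spanned 1829 bp with 7.34, 5.91 and 4.17-fold, AFF4-like M.coruscus_chr6_0287, named for a scaffold of transcription elongation, 1951 bp with 4.96, 4.39 and 4.91-fold, FAM65C-like M.coruscus_chr6_0663 1954 bp with 6.27, 2.83 and 3.74-fold, and neuropeptide FF receptor 2-like M.coruscus_chr3_2128 2139 bp with 3.60, 5.76 and 4.63-fold. At the wide end, ankyrin-1-like M.coruscus_chr11_2464 spanned 146402 bp with 5.90, 3.32 and 4.09-fold, and the PKD1L1-like gene M.coruscus_chr2_0719, of the polycystin family, spanned 114294 bp with 4.43, 3.96 and 12-fold. The uncharacterized M.coruscus_chr3_3280 (119035 bp) had 4.96 and 7.24-fold almost 100 kb past its TSS and 9.34, 4.43 and 5.54-fold on the upstream side. The MAM and LDL-receptor domain gene M.coruscus_chr12_0552 (110567 bp) had an intronic peak of 4.03-fold and, across the TSS, intergenic peaks of 5.57 and 17.7-fold.

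Genes next to each other by their gene number were both in the set in 6 cases. The actin gene and M.coruscus_chr6_0613 together had 20 peaks over 115950 bp, with 65230 bp between the sets. M.coruscus_chr3_0104 and the adhesion GPCR-like M.coruscus_chr3_0105 had 9 peaks over 33582 bp with only 6437 bp between them, and 8 of the 9 were over high background. The folds of the second gene of this pair were 4.15, 2.74, 2.57 and 2.04. M.coruscus_chr13_0877 and M.coruscus_chr13_0878 had 9 over 74882 bp, and the second gene had 5.02, 5.67, 6.47 and 4.45-fold. The other 3 pairs were acyl-CoA oxidase and chitin synthase 3-like genes (M.coruscus_chr14_1364 and M.coruscus_chr14_1365), 2 splicing helicase genes (M.coruscus_chr2_2189 and M.coruscus_chr2_2190) and M.coruscus_chr9_0158 with the first vacuolar sorting gene. The chitin synthase-like gene, named for an enzyme of chitin assembly, had intronic peaks of 4.26, 2.71 and 3.04-fold. The 4 peaks of its neighbour ranged from 3.33 to 4.84-fold, so the folds of the pair overlapped. Of the helicases, the first had the higher folds given above and the second had 3.16, 4.31 and 3.85-fold. By chromosome, the number of such genes was between 5 on chromosome 10 and 29 on chromosome 1, and they held 8.70% and 27.9% of the peaks of those chromosomes.

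Protein matches were compared by database. A match in at least 1 of 4 protein databases was found for 173 of 194 genes (89.2%, 84.0 to 92.8), against 2078 of 2354 genes with 1 or 2 peaks (88.3%, 86.9 to 89.5). For Swiss-Prot the shares were 66.0% and 64.0%, for KEGG 72.7% and 72.4%, for TrEMBL 86.6% in both, and for InterPro 68.6% (61.7 to 74.7) and 73.1% (71.3 to 74.9). At least 1 of 18 word lists matched the names of 99 of the 194 genes. The largest groups were cytoskeleton, motors and cilia with 15 genes (7.73%, against 5.89% of all 2548 genes) and extracellular matrix and adhesion with 15 (7.73%, against 5.26%). Antioxidant and redox enzymes and protein kinases had 10 each (5.15%, against 3.81% and 3.18%). The redox list included the X-element-like gene and the WAP domain gene, and the kinase list a zonadhesin-like gene. Transposon-derived genes made up 3.09% against 1.41%, with some of the 6 entered by 1 database name only. Among the 6 were genes with the Swiss-Prot names of the disulfide isomerase TMX3, zonadhesin and telomerase reverse transcriptase. This share is thus one of word matches and not of known transposon genes. Inositol lipid enzymes made up 2.06% against 0.942%. Solute carriers made up 1.03% against 2.67%, and ubiquitin, SUMO and TRIM proteins 3.09% against 4.79%. No gene of the heat shock and folding list was in the set, where 22 of all 2548 genes with a peak (0.863%) matched it. At so low a share, an absence among 194 genes says little about this group. Between lists the median fold of the multi-peak genes' peaks was from 3.51 in histones and chromatin (5 genes) to 5.24 in zinc finger and transcription factors (7 genes). The first of these lists had 21 peaks, and its 8 peaks over high background were all those of M.coruscus_chr12_1896. An ankyrin-2-like gene and the splicing helicase genes M.coruscus_chr2_2189 and M.coruscus_chr2_2190 were also on it by name. Several gene families appeared more than 1 time, among them 5 of the 43 ankyrin genes with a peak, 4 of 38 zinc finger genes, 3 of 12 dynein genes, 2 of 9 acetylcholine receptor genes, 2 of 4 SETD8-A-like genes, 2 of 3 ATM-like and 2 of 3 VPS13-like genes. These families were picked after their values were seen, and 7.61% of all genes with a peak were in the set. The 19 ankyrin peaks had 3.06 to 5.90-fold.

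**Figure D5:**
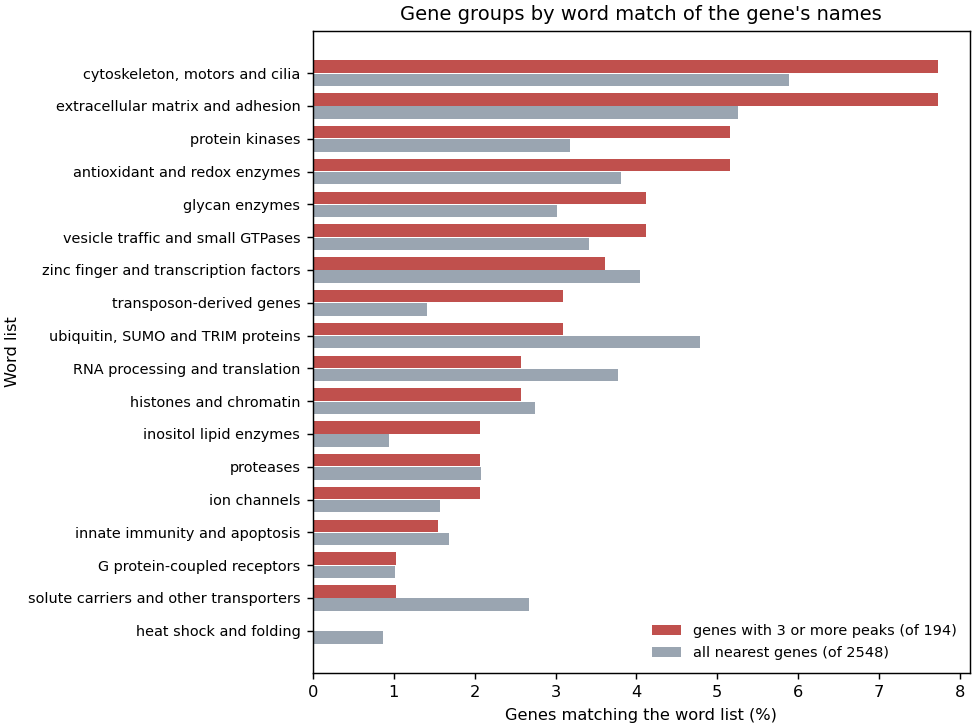
Share of genes (horizontal axis, %) whose names match each of 18 word lists (vertical axis), for the 194 genes with 3 or more peaks (red) and all 2548 genes with a peak (grey). The red bars reach 7.73% for the cytoskeleton and extracellular matrix lists, and the heat shock list has no red bar.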

How the data were processed

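The labels name 1 ChIP and 1 input library, and the paper names Nrf2 as the target. Per the submitters' processing notes the authors used Trimmomatic 0.36, FastQC, Bowtie2 2.5.1 and MACS3 3.0.0a7, with peaks called on the ChIP library against the input. How duplicates were handled and the q threshold were not given in the sources read, and the genome was an unpublished *M. coruscus* assembly. In the table deposited by the authors the signal is the pileup of fragments at the summit, the fold is a ratio over local background, and p and q come as −log10 values. Region class, distance to the TSS, nearest gene and database names are also the authors' own. Coordinates are theirs and 1-based, and the reference gene table at hand, of another assembly, was not used. Pileup is the measure of depth, and weak peaks of about 10 fragments are imprecise.

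From this table, peaks were counted per gene, and gaps, spans, classes, background and medians were computed with pandas 2.3.3 and NumPy 2.4.6 in Python 3.11.15, with SciPy 1.17.1 for intervals and Matplotlib 3.10.9 for plots. The counting and gap code was checked on simulated data. Shares carry Wilson 95% intervals and median gaps order-statistic intervals. The peaks of a gene share their source, and no test was run, since every measure came from the contrast that chose the genes. The genes, the rule for naming them and the word lists were chosen with earlier results of these data known. Named genes were those with 5 or more peaks, the 10 highest and 5 lowest median folds, the 5 shortest and 5 longest spans, up to 10 with promoter peaks, up to 4 per word list, and neighbouring pairs, and not every gene so selected is described. Other genes and the gene families were named after their values were seen. Word lists match names in other species, and some matches are not members by function. Gene names are those of database matches of unequal strength. The E-value was 0.0 for actin, AP-2 beta and importin-5. It was 1e-07 for the SDP1-like lipase, 2e-06 for the myosin-binding protein C-like, 4e-06 for the adhesion GPCR-like and 9e-06 for the calcium-sensing receptor-like gene. A weak match does not establish what a gene is.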

Additional observations from a re-analysis of the deposited data

How the results depend on the processing

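Each setting was changed alone. The number of genes with 3 or more peaks, 194 as called, was 98 with a fold enrichment of at least 4 and 109 when peaks of 1 gene under 1000 bp apart were joined, and 89 genes had 4 or more peaks. With a −log10 q of at least 3 it was 130, and without peaks over high background 151. Under each setting all remaining genes were among the 194, which was fixed in advance. Each setting could only lower the number of peaks of a gene or raise the number required. The intergenic share of 46.5% was 40.6% without the highest-background peaks and 52.5% in genes with 4 or more peaks. The share in genes with 1 or 2 peaks when highest-background peaks were left out, 37.9%, was added after seeing the data. The median gap of 1813 bp was 4186 bp after joining, which removes short gaps by construction. The database match of 89.2% was 92.9% at a fold of at least 4. The other values stayed within the interval of the value as called, or within 1.5 times it for counts. No paired analysis was possible because there was 1 library of each kind. A second ChIP library would be needed for any replicate error.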

Other observations

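Peaks were also grouped by position alone, an alternative chosen after seeing the data, by joining neighbours less than 5000 bp apart whatever their nearest gene. This gave 126 groups of 3 or more peaks with 462 peaks in all, of which 438 belonged to genes with 3 or more peaks. In 115 groups all peaks had the same nearest gene, 11 groups were shared between genes, and 4 groups held no gene of the set. Of the 194 genes, 119 had 3 or more peaks in 1 group. The largest group was the 13 peaks closest to the actin gene (chromosome 6, 27208704 to 27223806), with a median of 3.71-fold, and the next was a group of 8 peaks near the AP-2 gene. A group of 7 peaks on chromosome 1 (117107037 to 117119671) was split over 4 genes and only 1 of them, M.coruscus_chr1_2683, had 3 peaks. Its median fold was 2.64 and 6 of its 7 peaks were over high background.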
